A study of Mus musculus with 20 samples.

Results

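The Gnas-Nespas domain of mouse chromosome 2 was described from its promoter windows in single blastocysts. Its members were the windows of 3500 bp on chromosome 2 that start between 174.05 Mb and 174.25 Mb on build GRCm39, whatever their level, and 8 of the 54034 windows of the series met this. DNA methylation had been measured by bisulfite sequencing of the genomic DNA of 20 embryos, after polyadenylated RNA had been removed on beads. The control group held 10 blastocysts (replicates 1 to 10, genotype label Control). The other 10 (replicates 11 to 20) carried the genotype label Padi6-mutant, and the series' design text describes embryos derived from oocytes with the Padi6 P620A mutation. PADI6 is an oocyte protein that the egg hands on to the embryo. The labels give no strain, mother, litter, sex or batch, so each p-value reflects only how these embryos vary, and siblings may be among them. The blastocyst label could not be checked against marker genes, since promoter methylation holds no expression.

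The domain is one of the best studied imprinted loci. From one stretch of DNA it makes Nesp, which encodes a neuroendocrine secretory protein, the antisense RNA Nespas, the extra-large Gnas form XL and Gnas itself, which encodes the stimulatory G protein alpha subunit that couples hormone receptors to adenylyl cyclase. The region of the Nespas and XL promoters receives its methylation in the oocyte, so the maternal copy is methylated and the paternal one transcribes Nespas. The Nesp promoter is known as the opposite case, methylated on the paternal copy, a mark acquired after fertilization and linked to transcription of Nespas. Both copies are read together here, so a level averages the parental alleles over all cells of an embryo. Fewer methylated cells and fewer methylated copies per cell cannot be told apart.

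Of the 8 windows, 4 were tied to a gene. The deposited windows carry no gene names, so the spacing of the window start sites was compared with the spacing of gene ends in a RefSeq table of assembly GRCm38.p6. A single shift placed 7 of 23 windows of the neighbourhood exactly on a gene end, and the next best shift placed 1. The matched members were Mir296, Mir298, the first start of Gnas, which is Nesp, and Gnasas1, the RefSeq symbol of Nespas. The start sites of Nesp and Nespas were 11116 bp apart in both, which the single shift fixes, so it is no further support for the names. The other 4 members stay unnamed and are given by position. Windows of exon 1A and of the main Gnas promoter were not analysed here: the next window after Nespas starts at 174254597, outside the domain.

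The Nesp promoter is shown because it lies inside a window whose methylation was measured. In RefSeq (GRCm38.p6, chr2:174284070-174284369, plus strand, a build other than that of the windows) it reads as follows, with CpG sites, the bases that can carry the mark, in capitals. It holds 16 CpG sites in 300 bases, against a median of 7 over 32851 RefSeq promoters of this length, and 33% of those hold at least as many. The motif searched was CG, which reads the same on both strands.
Nesp promoter: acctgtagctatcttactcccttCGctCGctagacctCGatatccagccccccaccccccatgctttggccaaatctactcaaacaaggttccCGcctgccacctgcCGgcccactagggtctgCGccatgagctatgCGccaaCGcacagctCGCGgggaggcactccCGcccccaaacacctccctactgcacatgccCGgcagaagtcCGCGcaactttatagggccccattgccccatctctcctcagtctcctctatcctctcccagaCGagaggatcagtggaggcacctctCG

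The microRNAs miR-296 and miR-298 lie on the strand of Nespas, downstream of its start. Their mature forms from RefSeq (GRCm38.p6) are shown with the seed, bases 2 to 8, in capitals, and the 4 seeds differ.
miR-296-3p: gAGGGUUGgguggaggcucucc
miR-296-5p: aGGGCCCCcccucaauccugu
miR-298-3p: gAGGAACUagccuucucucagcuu
miR-298-5p: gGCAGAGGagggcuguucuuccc

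The domain was thinly covered in mutant embryos. At least 1 of the 8 windows had a value in 9 of 10 control embryos (55 values) and in 5 of 10 mutant embryos (27 values). Mutant replicates 15, 17, 18, 19 and 20 and control replicate 9 had none, so the levels and differences of domain windows leave them out. Shares over the whole table and values of windows around the domain can include them. Embryos with a value in at least 30000 windows of the whole table are called densely covered: control replicates 1 to 5 and 10 (37049 to 46950 windows) and mutant replicates 11, 12 and 14 (38549 to 43812). The remaining 4 control embryos had 4984 to 17002 windows with a value and the remaining 7 mutant embryos 2875 to 13847. Coverage thus moves with the group, and its part in the results was not tested beyond the values given for densely covered embryos. Read depth is unknown, so no interval can be given for a single level.

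**Figure D1:**
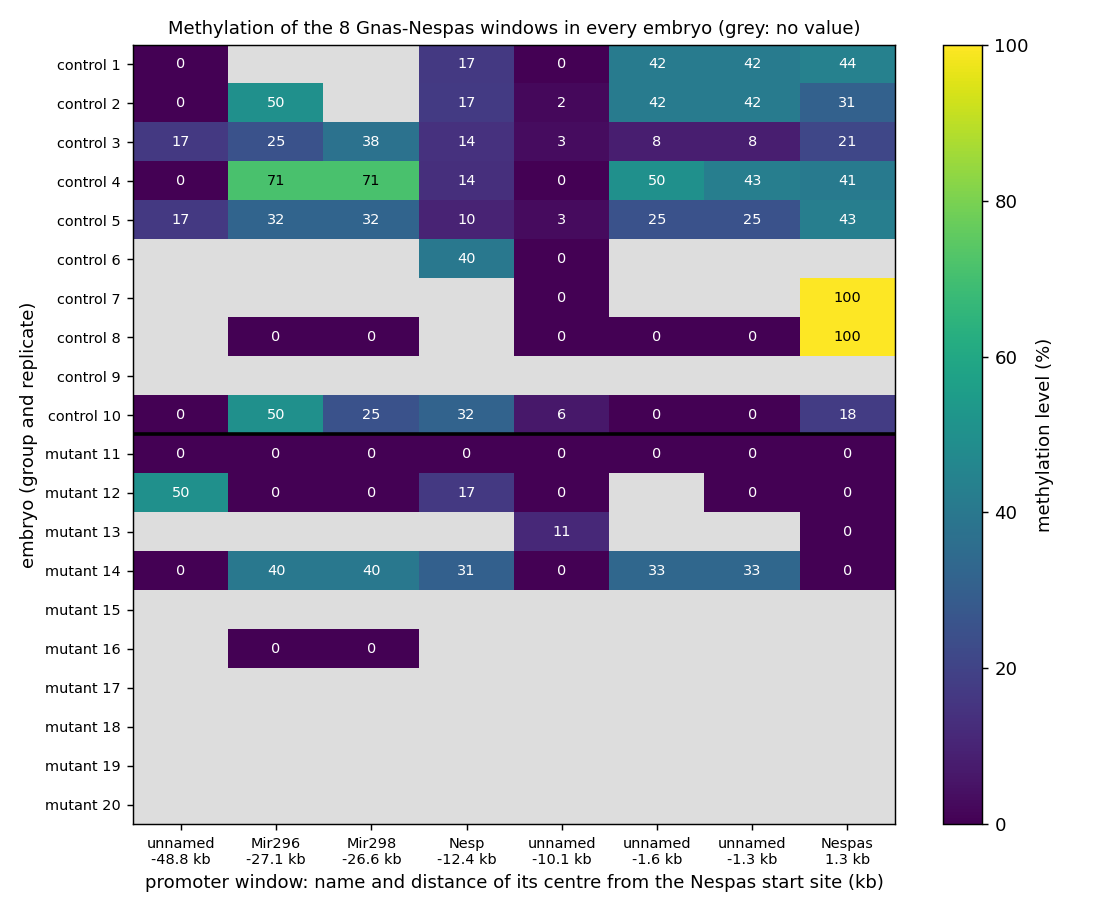
Methylation level (%, number and colour) of the 8 windows of the domain (columns, with the distance of each window centre from the Nespas start site in kb) in the 20 embryos (rows, controls above the line); grey marks no value. The 4 mutant embryos with a value at Nespas stand at 0, and the 8 control embryos stand at 18 to 100.

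The Nespas window gave the widest separation of the groups in the domain. Nespas starts at 174137229 on the minus strand, a site that a pair of windows described below also holds. The Nespas window itself spans chromosome 2 from 174136730 to 174140229. Among densely covered control embryos the level was 43.8% in replicate 1, 30.9% in replicate 2, 21.4% in replicate 3, 40.6% in replicate 4, 42.9% in replicate 5 and 17.6% in replicate 10. Sparsely covered control replicates 7 and 8 stood at 100%. Mutant replicates 11, 12, 13 and 14 were all at 0%. No mutant value reached the lowest control value. Control embryos averaged 49.7% ± 32.5 (SD, n = 8) and mutant embryos 0% ± 0 (SD, n = 4), which differ by -49.7 percentage points (SE 15.8, 95% interval -84.2 to -15.1).

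This difference failed the correction over all windows. In limma, a linear model with variances shared across windows, the unadjusted p was 0.00894 and the Benjamini-Hochberg adjusted p was 0.602 over the 37645 windows tested, those read in 3 or more embryos per group. A two-sided exact permutation test of this window alone gave p = 0.0162 (n = 8 and 4; the smallest possible is 0.00202). Of the tested windows, 0.513% had a difference as low or lower. The median control level over these windows was 9.66%, so most had no room to fall that far. The share is not one among windows of like control level. Among windows read in 4 or more embryos per group, 148 of 25830 (0.573%) had every mutant value below every control value. The Nespas window is one of these.

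Densely covered embryos alone showed the same separation at Nespas without the values of 100%. There the control mean was 32.9% ± 11.4 (SD, n = 6), the mutant mean 0% (n = 3) and the difference -32.9 points. The exact permutation p was 0.0119 (n = 6 and 3), the smallest that this design allows, and the limma adjusted p was 0.272 in a fit over the promoter regions of these embryos (windows whose starts lie within 1000 bp, averaged). The adjusted p-values of the other regions, given next, come from the fit of all embryos over 35764 promoter regions. Of 17634 windows with a value in all 9 of these embryos, 285 (1.62%) had every mutant value below every control value, and 209 (1.19%) the reverse. In 50 of them (0.284%) every mutant value was 0 and every control value above 0, as at Nespas. Among the sparsely covered embryos alone no window of the domain had enough values for a test.

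A pair of unnamed windows overlaps the Nespas window, and both also hold the Nespas start site, 174137229. They start at 174133864 and 174134130, share 3234 bp and form 1 promoter region, and the second shares 900 bp with the Nespas window. The region mean in control embryos was 41.7% in replicates 1 and 2, 8.33% in replicate 3, 46.4% in replicate 4, 25% in replicate 5 and 0% in replicates 8 and 10. In mutant embryos it was 0% in replicates 11 and 12 and 33.3% in replicate 14. The groups overlapped, and mutant replicate 14 lay above 4 of the 7 control embryos. The means were 23.3% ± 20.5 (SD, n = 7) and 11.1% ± 19.2 (SD, n = 3), a difference of -12.2 points (SE 13.1, 95% interval -41.6 to 17.3, limma adjusted p = 0.84). The first of these windows had a value in 2 mutant embryos and was not tested alone. Control replicates 8 and 10, at 0% here, stood at 100% and 17.6% in the overlapping Nespas window. Mutant replicate 14, at 33.3% here, stood at 0% there.

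The Nesp window had intermediate levels in 2 of the 3 mutant embryos that had a value. It spans 174123113 to 174126612 and holds the promoter printed above. Control embryos stood at 16.7% in replicate 1, 16.9% in replicate 2, 14.3% in replicate 3, 13.6% in replicate 4, 10% in replicate 5, 40% in replicate 6 and 31.8% in replicate 10. Mutant replicates 11, 12 and 14 stood at 0%, 16.7% and 30.8%. Apart from replicate 11, which lay below every control embryo, the mutant values fell within the control range. The means were 20.5% ± 11.05 (SD, n = 7) and 15.8% ± 15.4 (SD, n = 3), a difference of -4.66 points (SE 8.14, 95% interval -23.0 to 13.7, limma adjusted p = 0.886). Among densely covered embryos the difference was -1.40 points. The Nesp start site, 174126113, also lies in the overlapping window starting at 174125401, described below, which was almost unmethylated in both groups. By the shift used for naming, that window holds the printed promoter as well. Levels at this promoter thus depend on the window taken, and neither window gives the level of the printed bases alone.

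Nespas and Nesp, the oppositely imprinted promoters of the domain, were also compared within each embryo, a single comparison chosen after their values were seen. The level at Nespas minus that at Nesp was 27.1 points in control replicate 1, 14.03 in replicate 2, 7.14 in replicate 3, 27.0 in replicate 4, 32.9 in replicate 5 and -14.2 in replicate 10. In mutant embryos it was 0 in replicate 11, -16.7 in replicate 12 and -30.8 in replicate 14. Nespas was the more methylated promoter in 5 of 6 control embryos. The mean was 15.7 points ± 17.4 (SD, n = 6) against -15.8 ± 15.4 (SD, n = 3). The difference of -31.5 points had a two-sided exact permutation p of 0.0357 (n = 6 and 3; the smallest possible is 0.0119). Nespas was at 0% in these 3 mutant embryos, so its level could not exceed that of Nesp there, and the comparison largely restates the zeros at Nespas. The overlapping window starting at 174125401, which also holds the Nesp start site, was not used. It stood at 0% in these mutant embryos, so their negative differences depend on the window taken for Nesp. The pair was also picked after seeing the levels, and this p is no independent evidence.

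**Figure D2:**
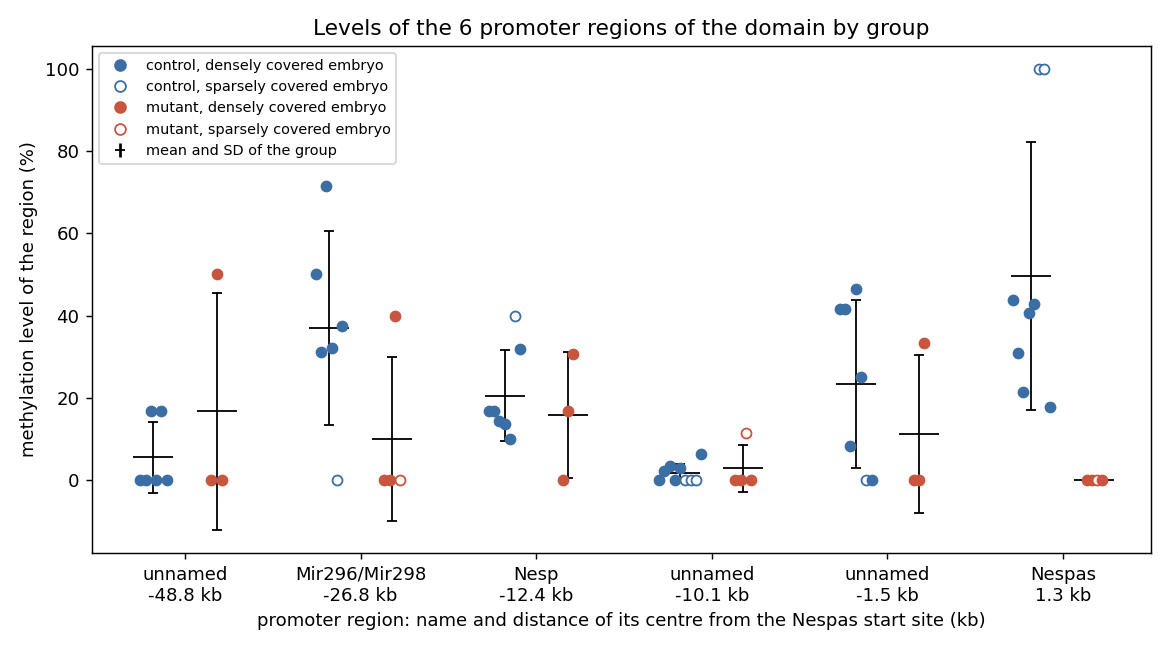
Methylation level (%) of the 6 promoter regions of the domain (x axis, with the distance of the region centre from the Nespas start site in kb) in control (blue) and mutant (red) embryos. Filled points are densely covered embryos, open points sparsely covered ones, and bars give the mean and SD. The groups do not overlap in the Nespas window and overlap in the other 5 regions.

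The window overlapping that of Nesp, which also holds the Nesp start site, was almost unmethylated in both groups. It starts at 174125401, shares 1212 bp with the Nesp window and had a value in the most embryos of the domain. Control levels ran from 0% to 6.35% with a median of 0% (n = 9). Mutant replicates 11, 12 and 14 stood at 0% and replicate 13 at 11.4%. The means were 1.64% ± 2.25 (SD, n = 9) and 2.86% ± 5.71 (SD, n = 4), a difference of 1.21 points (SE 2.60, 95% interval -4.44 to 6.87, limma adjusted p = 0.907). Mutant replicate 13 carries the sign: without it the difference was -1.64 points. In all 7 control embryos with a value in both, this window stood below the neighbouring Nesp window.

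The microRNA windows were variable in both groups. They start at 174108419 (Mir296) and 174108879 (Mir298), share 3040 bp and form 1 region. Its level in control embryos was 50% in replicate 2, 31.2% in replicate 3, 71.4% in replicate 4, 32.1% in replicate 5, 0% in replicate 8 and 37.5% in replicate 10. Mutant replicates 11, 12 and 16 stood at 0% and replicate 14 at 40%. All 4 mutant values lay within the control range, whose lower end is the 0% of control replicate 8. That embryo and mutant replicate 16 were sparsely covered. The means were 37.1% ± 23.6 (SD, n = 6) and 10% ± 20 (SD, n = 4), a difference of -27.1 points (SE 13.5, 95% interval -57.4 to 3.29, limma adjusted p = 0.831). The exact permutation p was 0.129 (n = 6 and 4), and 0.107 among densely covered embryos (n = 5 and 3), where the difference was -31.1 points.

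The most distant member starts at 174086721 and is unnamed. Control replicates 1, 2, 4 and 10 stood at 0% and replicates 3 and 5 at 16.7%. Mutant replicates 11 and 14 stood at 0% and replicate 12 at 50%. The means were 5.56% ± 8.61 (SD, n = 6) and 16.7% ± 28.9 (SD, n = 3), and the difference of 11.1 points (SE 11.3, 95% interval -14.8 to 37.0, limma adjusted p = 0.835) rests on mutant replicate 12.

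Across the domain, 0 of the 7 tested windows and 0 of the 6 promoter regions passed an adjusted p under 0.05 in limma. Over all of the table, 14 of 37645 windows (0.0372%) and 16 of 35764 regions (0.0447%) passed. At that share a count of 0 among so few members is no result about them. At an unadjusted p under 0.05 there was 1 window and 1 region, Nespas in both, against 3.9% of all windows lower and 1.85% higher in mutant embryos. A lower mean in mutant embryos was found in 5 of the 7 windows, against 55.9% of all windows. The median difference was -11.7 points over the 7 windows and -1.07 points over all tested windows. The 7 windows count the overlapping microRNA pair as 2. Over the 6 regions, which count it as 1, 4 were lower in mutant embryos, against 20008 of all 35764 regions. The median difference was -8.42 points over the 6 regions and -1.11 over all regions. The domain windows also stood higher in control embryos, with a median of the window means of 22.8% against 9.66% over all windows.

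**Figure D3:**
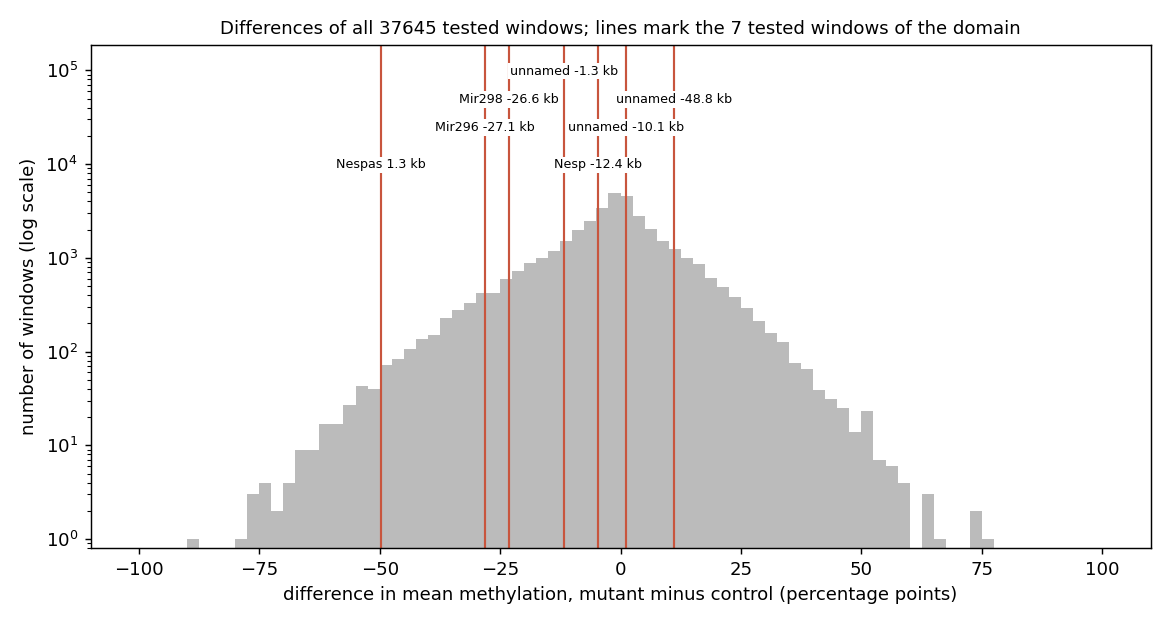
Number of windows (log scale) by the difference in mean methylation between mutant and control embryos (percentage points) over the 37645 tested windows. Lines mark the 7 tested windows of the domain: Nespas lies at -49.7 points, where 0.513% of all windows are as low or lower, and the other 6 lie between -28.1 and 11.1 points. With a median control level of 9.66%, most windows have no room to fall as far as Nespas.

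Mutant embryos differed from one another in the domain. Replicate 11 was at 0% in all 8 windows, some of which overlap. Its mean over all windows of the table was 11.1%, and that of replicate 12 was 7.16%. Both means lay below the lowest control mean, 12.2% in control replicate 10. Among densely covered mutant embryos, only replicate 14 lay above that control mean. Whether the zeros of replicate 11 are particular to the domain was not tested. Replicate 14 was at 0% in 3 of its 8 windows, Nespas among them, and its other 5 windows ranged from 30.8% to 40%. Those 5 include the overlapping pairs of the microRNAs and of the region starting at 174133864. The mean of replicate 14 over all windows, 17.6%, was the highest of the mutant group. The mean of the domain windows with a value was 25.5% ± 11.1 (SD, n = 9, from 16.4% to 50%) among the controls, compared with 7.48% ± 9.16 (SD, n = 5, from 0% to 22.2%) among the mutants. The lowest control embryo lay above 4 of the 5 mutant embryos. These means cover different windows in different embryos, from 2 to 8, and are given with no test.

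The windows around the domain give its setting. The 5 nearest tested windows on either side had control means from 1.43% to 32.8%, and 5 of these 10 were lower in mutant embryos. Their differences ran from -24.4 to 21.8 points, and 0 passed in the limma fit over windows (smallest adjusted p 0.216). The Nespas difference of -49.7 points lay outside this range. Complete separation was also seen next to the domain, in the other direction: in the window starting at 173949142, chosen after its values were seen, every mutant value lay above every control value. Its means were 2.13% ± 3.28 (SD, n = 7) in the controls and 23.9% ± 9.64 (SD, n = 4) in the mutants, with an unadjusted limma p of 0.000277, smaller than that at Nespas, and it too failed the correction. No region of the domain had a value in 6 embryos of each group, the minimum set for naming the regions most like it.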

How the data were processed

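Genomic DNA of 10 control and 10 mutant mouse blastocysts was bisulfite sequenced. Per the submitters' processing notes, Trim Galore 0.4.4 and Bismark 0.18.2 were used with build GRCm39. The authors deposited 1 table of methylation levels in percent, 1 row per promoter window and 1 column per embryo. How calls were combined in a window, and any coverage minimum, is not given in the labels or headers used here. After 46 repeated rows were dropped, 54034 windows remained. Whole numbers above 100 (1594 values, 0.324%; 1 of them among the 82 values of the domain, in the Nespas window of control replicate 4) were read as percents without their decimal point and divided by 1000.

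A window reaches from 3000 bp before a start site to 499 bp after it. Windows whose starts lie within 1000 bp were joined into promoter regions over the whole table and averaged in each embryo. Windows and regions read in 3 or more embryos per group were fitted in limma 3.58.1 (R 4.3.3) on the untransformed percent, with Benjamini-Hochberg adjustment over all of them and a threshold of 0.05. The procedure was tested on simulated data, where it missed most of the differences put in. These were added to control values without a cap at the highest possible percent, so the run gives no rate of misses for real windows. A window that fails the correction may still differ. Single regions were also compared by two-sided exact permutation tests over embryos, with raw p-values for the 6 regions and for the pair of Nespas and Nesp. The rule for named regions took every promoter region of the domain. Alternatives were other minimums of embryos, embryo weights, another scale, variance model and joining, coverage classes and single embryos left out. A list of other imprinted genes was not analysed here, since the gene table is on another build. The members and lists were chosen with earlier results of these data known.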

Additional observations from a re-analysis of the deposited data

Results flagged for a closer look

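Of 11 groups of 4 to 10 embryos checked, 2 held an embryo whose gap to the next value exceeded the limit for its group size, and chance gives about 1 in 20. In the Mir296 and Mir298 region mutant replicate 14 stood at 40% and the other 3 mutant embryos at 0%. In the window starting at 174125401 mutant replicate 13, a sparsely covered embryo, stood at 11.4% and the other 3 mutant embryos at 0%. Both groups hold 3 equal values, so any other value lies past the limit.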

How the results depend on the processing

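The count of 0 called windows and regions in the domain held under each of 26 alternatives for windows and 29 for regions, while the count over the whole table ran from 0 to 18 in both. The Nespas difference ran from -54.2 to -32.9 points over the alternatives on the percent scale, the last among densely covered embryos, with adjusted p from 0.272 to 0.796 and unadjusted p from 0.000855 to 0.0215. Leaving out single embryos gave -54.2 to -42.5 points there, -37.1 to -20.2 in the microRNA region, -6.40 to -1.40 at Nesp, -16.1 to -8.33 in the region starting at 174133864, 10.0 to 13.3 in the region starting at 174086721 and -1.64 to 2.17 in the one starting at 174125401. The last turned its sign in 3 alternatives: without mutant replicate 13 (-1.64 points), in densely covered embryos (-2.46) and with embryo quality weights (-0.13); for the weights the cause was not tested. For Nesp and the regions starting at 174133864 and 174086721, the ranges above rest on leaving out control embryos only. Each had values in 3 mutant embryos, and leaving out any of them left fewer than the minimum of 3. Whether these differences keep their sign without such an embryo was not tested. That includes the region starting at 174086721, whose difference rests on a single mutant embryo. At least 5 or 7 embryos per group, and sparsely covered embryos alone, left no region of the domain to test. The minimum of 4 embryos and the Nespas and Nesp pair were chosen after seeing the data. No paired analysis was possible because the groups share no replicate number. The unknown depth limits every single level, and 3 or 4 mutant embryos per region limit the tests.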
